A study of Mus musculus with 89 samples.

Results

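Sfmbt2 and the microRNA hairpin genes that lie inside it were followed through RNA-seq of mouse embryonic stem cells. The rows were taken from a table of counts per gene by their symbol: Sfmbt2 itself and every row named Mir297, Mir466, Mir467 or Mir669. This gave 43 of the 26276 rows that carry a symbol, which are Sfmbt2 and 42 hairpin rows. No row was named Mir297, so 3 of the 4 families have rows. The families were put together with the levels in these same 6 libraries in view, so the group was in effect selected on the values compared here, and its difference between dTAG and control libraries is given as a description.

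The cells are V6.5, an embryonic stem cell line of the mouse, kept in medium with LIF and inhibitors of MEK and GSK3 (2i + LIF), which holds them in the naive state. All 6 libraries come from cells of the genotype H2afz-FKBP-V, in which the histone variant H2A.Z.1 carries a tag that lets the dTAG molecule direct the protein to the proteasome. There were 3 dTAG libraries and 3 Control libraries, numbered as replicates 1 to 3. The dose and length of the dTAG treatment, what the control cells received and whether the tagged line is 1 clone or several are not known from the labels, and the controls carry the tag too. Nothing in the labels says that replicates were separate cultures, so the spread between libraries may be technical. The other 83 of the 89 samples of the series are not analysed here.

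Sfmbt2 encodes a Polycomb-type protein with MBT domains, which bind methylated histone tails. In the mouse the gene is imprinted, is expressed from the paternal copy in early embryos and extraembryonic tissue, and is needed in trophoblast. One of its introns holds a large rodent cluster of microRNA hairpins of the families Mir297, Mir466, Mir467 and Mir669, many of them near-identical copies. A hairpin is the folded stretch of the primary transcript that Drosha and Dicer cut down to the mature microRNA, and the seed, bases 2 to 8 of the mature strand, is the stretch that pairs with target RNAs. The labels do not describe small-RNA libraries, so a count on a hairpin row is a count of reads laid over that stretch and is not a level of mature microRNA.

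All 42 hairpin rows matched a RefSeq gene of GRCm38.p6, and 40 of them lie inside Sfmbt2, which spans chr2:10370440-10595253 (224.814 kb). The table used here gives gene spans, so whether a row overlaps an exon of the host was not looked up. The first is Mir669e at chr2:10467495-10467613, 97.055 kb from the start of Sfmbt2. The last is Mir669h at chr2:10518155-10518279, so the rows fill 50.785 kb of the host gene. Of these 40, 6 belong to the Mir466 family, 13 to Mir467 and 21 to Mir669, with 10 copies of Mir467a and 11 of Mir669a among them. The hairpins are 73 to 127 bases long, with a median of 87. Neighbouring Mir467a copies sit a median of 2.462 kb apart (2.413 to 4.88 kb). RefSeq lists 71 hairpin genes of the 4 families inside Sfmbt2, and the other 31 are not analysed here.

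The remaining 2 rows carry a family name but lie on other chromosomes, Mir467f on chromosome 11 and Mir466i on chromosome 13. They are also the only 2 of the 42 with a mature sequence in the RefSeq table used here, and their sequences are shown as examples of the mature microRNAs of the Mir467 and Mir466 families. Each is written 5′ to 3′ with the seed in capitals.
mmu-miR-467f: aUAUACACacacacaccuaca
mmu-miR-466i-3p: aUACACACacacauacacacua
The first is read from the minus strand at chr11:69635419-69635439 and the second from the plus strand at chr13:17747552-17747573. Their seeds are UAUACAC and UACACAC, so they are not shared. In both, the seed runs on into alternating A and C. Mir467f had 3 counts in dTAG replicate 2 and 0 in the other 5 libraries, and Mir466i had 0 in all 6. The counts described below therefore come almost wholly from the 40 rows inside Sfmbt2.

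The libraries differ in depth and in content. The dTAG libraries held 13214351, 2284068 and 2121183 counts and the controls 14427884 to 16033011. Values are counts per 1e+06 counts in rows with a symbol (CPM). A row without a count may stand for as many as 3 counts, a floor of 0.232, 1.41 and 1.66 CPM in dTAG replicates 1, 2 and 3 and of 0.192 to 0.213 CPM in the controls. Of 1455 olfactory and vomeronasal receptor genes, which embryonic stem cells do not use, 23.4%, 71.4% and 97.0% had a count in dTAG replicates 1, 2 and 3, against 10.9% to 18.0% in the controls. The 14 naive pluripotency markers, all of them counted in every library, summed to 3233, 2021 and 726 CPM in dTAG replicates 1, 2 and 3, against 2914 to 3095 CPM in the controls. The most abundant of them in the controls were Dppa5a, Tfcp2l1 and Pou5f1, and dTAG replicates 2 and 3 were below every control for each. dTAG replicates 2 and 3 thus stand apart from the other 4 libraries. The fold change of Sfmbt2, the hairpin sum, the hairpin median and the calls are given with and without them below. Other fitted values, such as the medians over gene lists, are given only with them. The part of this difference in content in the values below was not tested.

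The host gene was counted at 53.0 to 67.1 CPM in every library. In bulk RNA, fewer cells of a type and less RNA per cell cannot be told apart. Sfmbt2 had 844, 113 and 96 counts in dTAG replicates 1, 2 and 3, against 923, 1050 and 832 in Control replicates 1, 2 and 3. This is 65.4, 53.0 and 53.0 CPM in the dTAG libraries (57.1 ± 7.16, SD, n = 3) and 64.8, 67.1 and 59.0 CPM in the controls (63.6 ± 4.14, SD, n = 3). dTAG replicate 1 lies among the controls and dTAG replicates 2 and 3 lie below all of them, so the groups overlap. In edgeR's quasi-likelihood fit over 6 libraries the log2 fold change was -0.74 (SE 0.52), or -0.90 relative to the median of all tested rows. With library totals in place of TMM scaling it was -0.15 (SE 0.25), and the median of all rows then moved to 1.11 from 0.16. dTAG replicate 1 alone against the controls gave -0.05 (SE 0.18). The fit without dTAG replicate 1, under TMM scaling, gave -1.59 (SE 0.52), where the median of all rows was 0.68.

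The summed hairpin rows varied far more than their host. They held 1138, 191 and 16 counts in dTAG replicates 1, 2 and 3, against 1028, 733 and 1719 in Control replicates 1, 2 and 3. In CPM this is 88.2, 89.6 and 8.83 in the dTAG libraries (62.2 ± 46.2, SD, n = 3) and 72.2, 46.8 and 122 in the controls (80.3 ± 38.2, SD, n = 3). The Wilson 95% intervals of the 3 controls, which cover counting error only, do not overlap (67.9 to 76.7, 43.6 to 50.3 and 116 to 128 CPM). dTAG replicates 1 and 2 lie within the range of the controls, and dTAG replicate 3 lies below it with an interval of 5.43 to 14.3 CPM. The mean over the dTAG libraries was 0.774 of the mean over the controls, and this ratio takes its direction from single libraries: it was 1.11 without dTAG replicate 3 and 1.05 without Control replicate 3. Rows that are near-identical may be given the same reads, so the sums can count a read more than once.

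**Figure D1:**
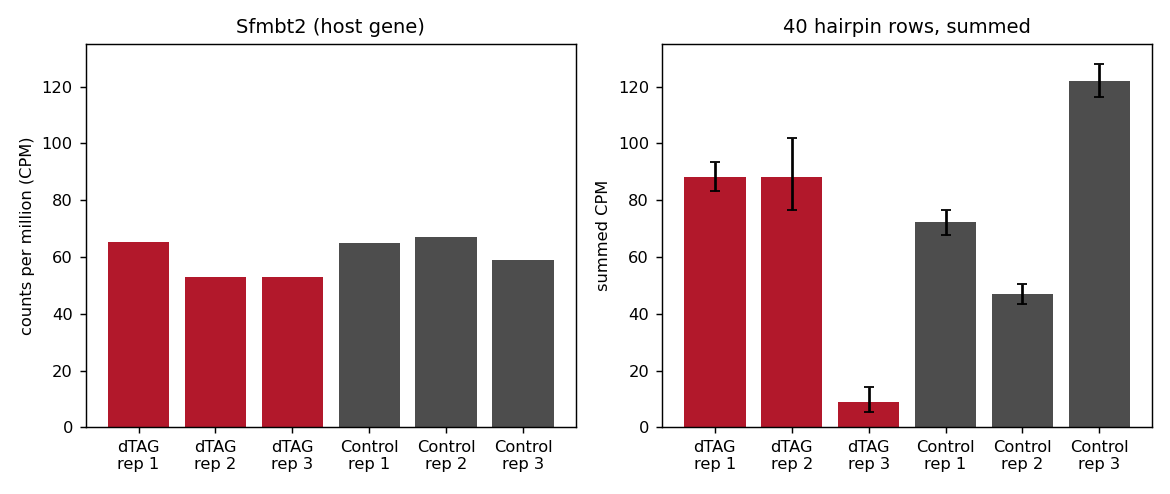
Sfmbt2 (left, CPM) and the sum of the 40 hairpin rows inside it (right, summed CPM) in each of the 3 dTAG and 3 Control libraries; error bars on the right are Wilson 95% intervals. Sfmbt2 sits between 53.0 and 67.1 CPM in all 6 libraries, while the hairpin sum runs between 46.8 and 122 CPM in the controls alone and is at 8.83 CPM in dTAG replicate 3.

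The hairpin sum did not follow the host gene from library to library. Per count on Sfmbt2 there were 1.35, 1.69 and 0.167 hairpin counts in dTAG replicates 1, 2 and 3, against 1.11, 0.698 and 2.07 in Control replicates 1, 2 and 3. Control replicate 2 had the highest Sfmbt2 level of the 6 libraries and the lowest hairpin sum of the controls. Control replicate 3 had the lowest Sfmbt2 level of the controls and the highest hairpin sum of all libraries. Across the 3 controls the coefficient of variation was 6.51% for Sfmbt2 and 47.6% for the hairpin sum.

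Row by row, the controls also varied more than counting alone would give. Among the 29 cluster rows with 30 to 300 counts over the 3 controls, the coefficient of variation between controls had a median of 64.1% (10.06% to 134%), where Poisson counting gives a median of 19.4%. The same measure had a median of 44.3% over 30 other microRNA rows of like total and 41.9% over 5831 other rows, with Poisson medians of 22.2% and 17.2%. Here and below, other microRNA rows were taken by name and include host-gene rows such as Mir124a-1hg, which are not hairpins. Of the 40 rows, 5 had no count in 1 control and at least 10 in another, Mir467a-1, Mir669j, Mir669a-5, Mir669a-6 and Mir669i. Mir669j, for example, had 3, 1 and 0 counts in dTAG replicates 1, 2 and 3 and 68, 0 and 16 in Control replicates 1, 2 and 3. Mir669a-5 had 27, 4 and 2 counts in the dTAG libraries and 0, 28 and 36 in the controls.

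Several rows held exactly the same count as another. In Control replicate 1, 17 of the 25 rows with at least 10 counts equalled another row, and 5 of them stood at 22. In Control replicates 2 and 3 the same held for 8 of 24 and 9 of 31 rows, and in dTAG replicate 1 for 7 of 26. Of these equal rows, 5 pairs, made of 6 rows in all, were equal in at least 2 libraries, and each pair lay within 1 family. Mir669a-8 and Mir669a-9 were equal in 3 libraries, at 13 in dTAG replicate 1, 22 in Control replicate 1 and 15 in Control replicate 2, and differed in Control replicate 3 with 28 and 15. Some equal rows were of different families, such as Mir467a-3 and Mir669j, both at 68 in Control replicate 1. Whether equal rows share reads, and how often small counts are equal without that, was not tested. Rows that may share reads are not taken here as separate measurements. How reads with several matches were counted is not given in the sources used here.

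**Figure D2:**
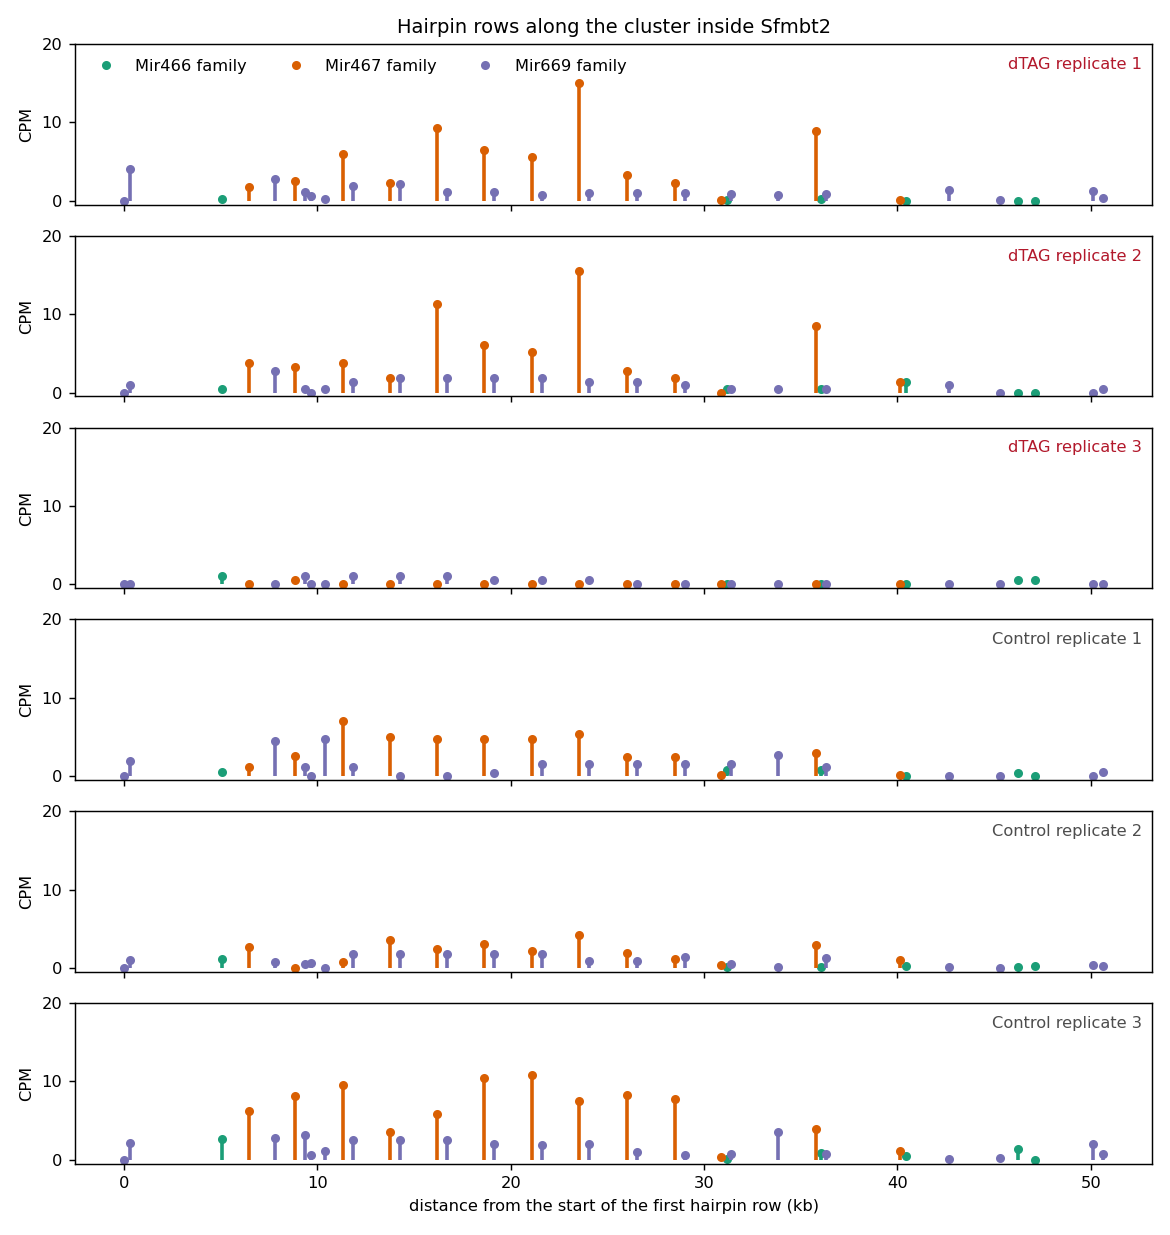
CPM of the 40 hairpin rows by their distance in kb from the first row, coloured by family, with 1 panel for each of the 3 dTAG and then the 3 Control libraries. A Mir467 row is the highest in each panel other than that of dTAG replicate 3, which has at most 2 counts on any row.

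By family, the Mir467 rows carried most of the hairpin counts in 5 of the 6 libraries. Their share was 72.1% and 73.9% in dTAG replicates 1 and 2, against 60.5%, 56.8% and 68.4% in Control replicates 1, 2 and 3. In dTAG replicate 3 it was 6.25%, which is 1 count of 16. The Mir467 rows summed to 63.5, 65.2 and 0.552 CPM in the dTAG libraries, against 43.7, 26.6 and 83.4 CPM in the controls. The Mir669 rows, which are more numerous, summed to 24.0, 20.2 and 6.07 CPM in the dTAG libraries, against 26.0, 18.1 and 33.2 CPM in the controls. The 6 Mir466 rows were low throughout, at 0.620, 2.81 and 2.21 CPM in the dTAG libraries, against 2.46, 2.17 and 5.39 CPM in the controls. Mir467 counts per Mir669 count were 2.65, 3.23 and 0.0909 in dTAG replicates 1, 2 and 3 and 1.68, 1.47 and 2.51 in Control replicates 1, 2 and 3. dTAG replicates 1 and 2 thus had the 2 highest ratios, and Control replicate 3 was close to dTAG replicate 1.

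**Figure D3:**
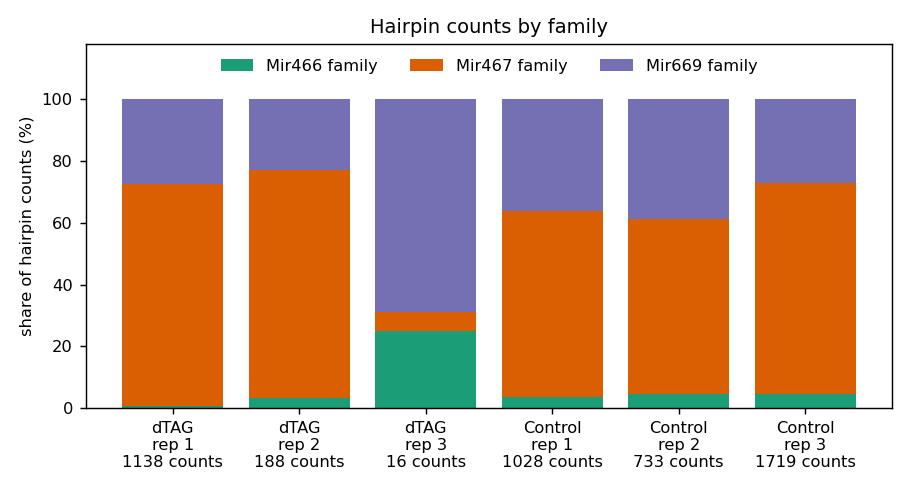
Share of the hairpin counts (%) on Mir466, Mir467 and Mir669 rows in each of the 3 dTAG and 3 Control libraries, with the total hairpin counts of the 40 rows under each bar. The Mir467 share is 56.8% or more in every library other than dTAG replicate 3, whose bar rests on 16 counts.

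The 12 rows with the most counts over all libraries held 67.9% of the hairpin counts, and 11 of them are Mir467 rows, the exception being Mir669k. Mir467a-6 (chr2:10491048-10491130) had the most. It had 194, 33 and 0 counts in dTAG replicates 1, 2 and 3, against 76, 65 and 105 in Control replicates 1, 2 and 3. In CPM this is 15.0, 15.5 and 0 in the dTAG libraries and 5.34, 4.15 and 7.45 in the controls. dTAG replicates 1 and 2 are above every control, while the 0 of dTAG replicate 3 allows up to 1.66 CPM and is below every control.

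Mir467a-3 and Mir467a-10 showed the same arrangement of dTAG libraries around the controls. Mir467a-3 (chr2:10483678-10483760) had 120, 24 and 0 counts in dTAG replicates 1, 2 and 3, against 68, 39 and 83 in Control replicates 1, 2 and 3. This is 9.30, 11.3 and 0 CPM in the dTAG libraries, against 4.77, 2.49 and 5.89 CPM in the controls. Mir467a-10 (chr2:10503273-10503355) had 8.91, 8.44 and 0 CPM in dTAG replicates 1, 2 and 3, against 3.02, 2.94 and 3.90 CPM in Control replicates 1, 2 and 3. In each, dTAG replicates 1 and 2 lie above and dTAG replicate 3 lies below all the controls, so the groups overlap.

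Put together after their values were seen, Mir467a-3, Mir467a-6 and Mir467a-10 made up 37.7% and 39.9% of the hairpin counts in dTAG replicates 1 and 2 and 0 of 16 counts in dTAG replicate 3, against 18.2%, 20.5% and 14.1% in Control replicates 1, 2 and 3. Their summed level was 33.2, 35.2 and 0 CPM in the dTAG libraries, against 13.1, 9.58 and 17.2 CPM in the controls. Among all 40 rows, 1 more, Mir669a-2, had dTAG replicates 1 and 2 above every control, and 4 had both below, Mir466o, Mir467b, Mir467a-9 and Mir466n. Mir669a-2, Mir466o, Mir467a-9 and Mir466n had 2, 1, 0 and 0 counts in dTAG replicate 2, under the floor of 3 counts. Their place beside the controls is thus not resolved there. Of these rows only Mir467b had more than 3 counts in dTAG replicate 2 and every control above its floor of 1.41 CPM. In the 29 rows with at least 30 control counts, 10.3% had both of these libraries above and 6.90% had both below, where the same shares were 19.5% and 4.95% over 16000 other rows.

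For 8 of the 12 rows dTAG replicates 1 and 2 lay inside the range of the controls. Mir467a-4 had 6.51, 6.10 and 0 CPM in the dTAG libraries, against 4.70, 3.07 and 10.5 CPM in the controls. Mir467a-5 had 5.58, 5.16 and 0 CPM in the dTAG libraries, against 4.70, 2.24 and 10.8 CPM in the controls. Mir467a-2 had 5.97, 3.75 and 0 CPM in the dTAG libraries, against 7.09, 0.831 and 9.51 CPM in the controls. In these rows the spread of the controls takes in both of the first 2 dTAG libraries. The others were Mir467a-7, Mir467a-8, Mir467a-1, Mir467c and Mir669k, with 1.78 to 3.75 CPM in dTAG replicates 1 and 2 and 0 to 8.23 CPM in the controls.

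Mir467b (chr2:10481248-10481320) was the 1 row of the 12 with all dTAG libraries below all controls. It had 29, 4 and 0 counts in dTAG replicates 1, 2 and 3, against 72, 56 and 51 in Control replicates 1, 2 and 3. In CPM this is 2.25, 1.88 and 0 in the dTAG libraries and 5.05, 3.58 and 3.62 in the controls. The 4 counts of dTAG replicate 2 are close to the floor of 3.

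**Figure D4:**
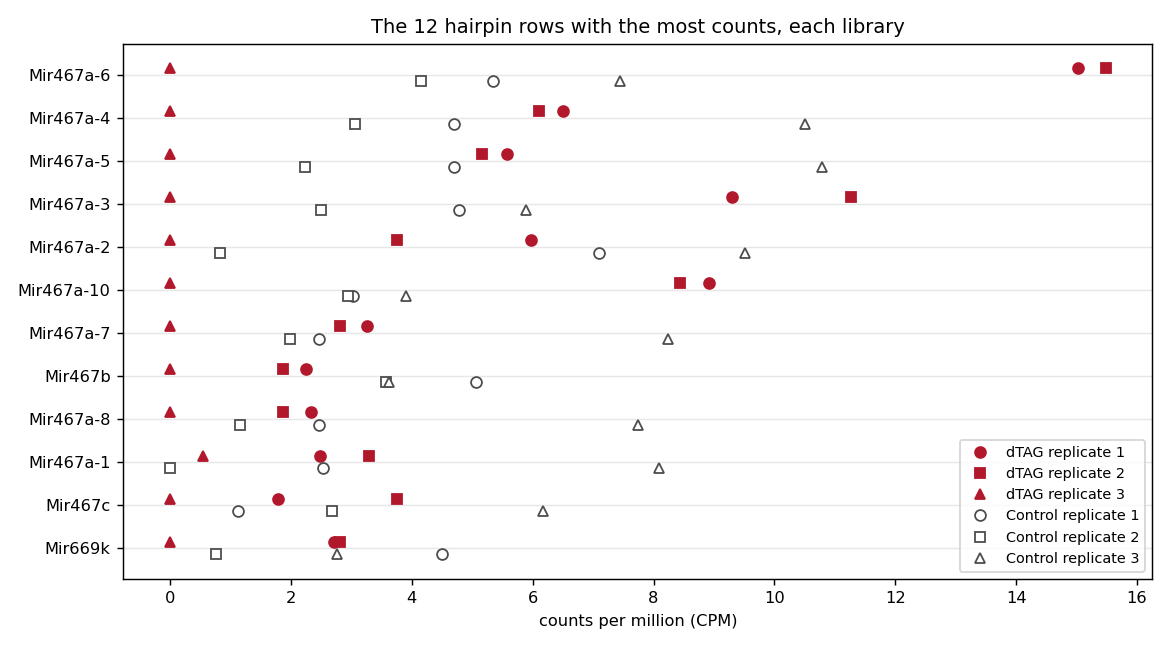
CPM of the 12 hairpin rows with the most counts, with 1 point for each library (filled for the 3 dTAG libraries, open for the 3 Control libraries). dTAG replicates 1 and 2 lie beyond every control on Mir467a-6, Mir467a-3 and Mir467a-10, at 8.44 to 15.5 CPM, and dTAG replicate 3 is at 0 on 11 of the 12 rows.

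By Pearson correlation the profile across the 40 rows was closest between dTAG replicates 1 and 2, but by rank they were about as close to Control replicate 3. Their counts had a Pearson r of 0.956 and a Spearman rho of 0.814 over the 40 rows. Either of them with a control gave a Pearson r of 0.615 to 0.738, and the 3 pairs of controls gave 0.485, 0.708 and 0.549. The Spearman rho with Control replicate 3 was 0.807 for dTAG replicate 1 and 0.769 for dTAG replicate 2. By Pearson, dTAG replicate 3 gave -0.321 to 0.0189 with the others. These values describe the rows of a library, which may share reads and are not independent of each other. Over 30 other microRNA rows of like total the same 2 dTAG libraries had a Pearson r of 0.266. The highest value was 0.943, between dTAG replicates 2 and 3, whose Spearman rho was 0.529. A host-gene row among these, Mir124a-1hg, had 55 and 87 counts in dTAG replicates 2 and 3, where the median row had 2.5 in each. The part of this row in the Pearson r was not tested.

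**Figure D5:**
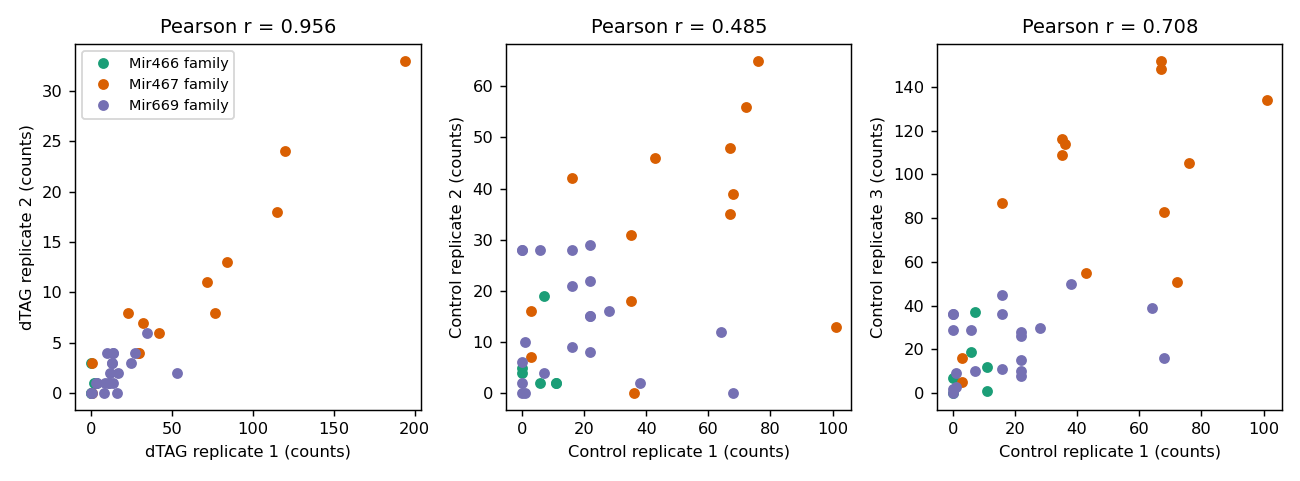
Counts of the 40 hairpin rows in pairs of libraries: dTAG replicate 2 against dTAG replicate 1 (left), and Control replicates 2 and 3 against Control replicate 1 (middle and right), coloured by family. The points lie closer to a line for the 2 dTAG libraries (Pearson r 0.956) than for the controls (0.485 and 0.708).

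In dTAG replicate 3 the cluster was nearly without counts although its host was not. Of the 40 rows, 29 had no count there, and the highest count was 2. Hairpin rows with a count numbered 36, 34 and 11 of 42 in dTAG replicates 1, 2 and 3, against 33, 36 and 38 in Control replicates 1, 2 and 3. Among the 29 rows with 30 to 300 control counts, 20 (69.0%) were at 0 in dTAG replicate 3 and 1 in dTAG replicate 2, a library of close to the same depth. At 0 in dTAG replicate 3 were also 7 of 30 other microRNA rows (23.3%) and 54 of 5831 other rows (0.926%) of like total. The median count of these rows in dTAG replicate 3 was 0 for the cluster, 2.5 for other microRNA rows and 60 for other rows, without matching on row length. The 6 rows with a count in all 6 libraries were Mir466o, Mir669a-1, Mir669a-4, Mir669a-7, Mir669p-1 and Mir669a-8.

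Of the 43 rows, 26 passed the filter on low counts (0.741 CPM in at least 3 libraries), which are Sfmbt2 and 25 hairpin rows, and 17 hairpin rows were not tested. Of the 25, 17 had all 3 controls over this level, and 0 passed with no dTAG library over it. In edgeR's quasi-likelihood test with Benjamini-Hochberg adjustment 0 of the 26 passed an adjusted p of 0.05, and 0% of all 18116 tested rows did, although 4202 rows had an unadjusted p under 0.05. None of the 26 had an unadjusted p under 0.05. DESeq2, run without this filter, called 0 of 41 cluster rows and 5196 of all 25668 rows. limma-voom, on the same rows as edgeR, called 0 of 26 and 0 of 18116. The tested hairpin rows had a median log2 fold change of -1.05, against 0.16 over all tested rows. With library totals in place of TMM scaling the hairpin median was -0.68, against 1.11 over all tested rows. The fit of dTAG replicate 1 alone against the controls was filtered anew and kept 35 cluster rows. Its hairpin median was -0.48, against -0.02 over all rows then tested. None of these medians is independent of how the rows were chosen. In CPM, 1 tested hairpin row had all dTAG libraries below all controls, against 3.22% of all tested rows, 0 had them all above, against 23.9% of all tested rows, and 24 overlapped.

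Leaving out dTAG replicate 1 changed these calls. Of the 30 cluster rows then tested, edgeR's quasi-likelihood test with Benjamini-Hochberg adjustment called 2 lower, Sfmbt2 and Mir467b, where it called 19.8% of all rows lower. The log2 fold changes were -1.59 (SE 0.52) for Sfmbt2 and -3.20 (SE 1.20) for Mir467b, where the median of all rows was 0.68. These values depend on TMM scaling, whose factors over 6 libraries were 1.23 and 2.31 in dTAG replicates 2 and 3, against 0.742 to 0.805 in the controls. In CPM, which are without that scaling, Sfmbt2 had 53.0 and 53.0 in dTAG replicates 2 and 3, against 59.0 to 67.1 in the controls. Both calls rest on the 2 shallow libraries that stand apart in content.

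The genes around Sfmbt2 were read for comparison. Kin, which encodes a nucleic acid binding protein and lies 277.739 kb before Sfmbt2, had 16.0, 18.8 and 18.2 CPM in dTAG replicates 1, 2 and 3, against 20.6, 19.8 and 15.9 CPM in Control replicates 1, 2 and 3. Rbm17, a splicing factor gene 990.186 kb after it, had 98.0, 56.8 and 22.6 CPM in the dTAG libraries, against 97.0, 100.4 and 89.6 CPM in the controls. Pfkfb3, which encodes a regulator of glycolysis, had 29.4, 71.8 and 172 CPM in the dTAG libraries, against 33.6, 35.6 and 38.5 CPM in the controls. Itih5, an inter-alpha-trypsin inhibitor heavy chain gene, had 11.9, 21.1 and 46.3 CPM in the dTAG libraries, against 17.4, 17.6 and 13.8 CPM in the controls. Itih2, of the same family, and Prkcq, the gene of a T cell kinase, had 32.0 and 28.7 CPM in dTAG replicate 3, against at most 0.913 CPM in any control. Of these 6 neighbours, 4 were above every control in both dTAG replicates 2 and 3, where Sfmbt2 was below every control, and 1, Itih2, was above every control in dTAG replicate 1. The share of all rows above every control in dTAG replicates 2 and 3 was not computed. Without dTAG replicate 1, edgeR called 8839 of all 22093 tested rows higher, so the count of 4 is not read as a result about the neighbours.

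The genes that make and use microRNAs were counted in every library. Of 24 listed, 22 were in the table and 22 were tested, and 0 passed an adjusted p of 0.05 in edgeR's quasi-likelihood test. They had a median log2 fold change of -0.47, against 0.16 over all rows, but single genes of the list went both ways. The Argonaute genes Ago1, Ago3 and Ago4 were above every control in dTAG replicates 2 and 3, while Ago2 was not. Ago4 had 3.95, 16.4 and 65.7 CPM in dTAG replicates 1, 2 and 3, against 1.33, 0.894 and 2.20 CPM in Control replicates 1, 2 and 3. The list was drawn up with earlier results of these data known. Drosha, the nuclear nuclease that frees hairpins, had 173, 143 and 81.1 CPM in dTAG replicates 1, 2 and 3, against 190, 177 and 175 CPM in Control replicates 1, 2 and 3. Dgcr8, its RNA-binding partner, had 64.3, 71.8 and 46.9 CPM in the dTAG libraries, against 42.9, 71.6 and 57.1 CPM in the controls. Dicer1, which cuts the hairpin to its mature form, had 76.4, 101 and 122 CPM in the dTAG libraries, against 100.04, 74.7 and 73.1 CPM in the controls. The 3 most abundant of the list in the controls were Ddx5, Ran and Ddx17. Ddx5, a helicase that works with Drosha, had 417, 292.7 and 59.6 CPM in the dTAG libraries, against 444, 394 and 436 CPM in the controls. Ran, whose protein drives the export of hairpins from the nucleus, had 436, 213 and 24.3 CPM in the dTAG libraries, against 399.6, 358 and 396 CPM in the controls. Ddx17, a close relative of Ddx5, had 244, 212 and 138 CPM in the dTAG libraries, against 250.1, 247 and 276 CPM in the controls. For each of these 3 genes dTAG replicates 2 and 3 were below every control, while dTAG replicate 1 was among them for Ddx5, above them for Ran and below them for Ddx17.

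Of the 12 MBT-domain and YY1-partner genes, the set to which Sfmbt2 belongs, 12 were tested and 0 passed an adjusted p of 0.05 in edgeR's quasi-likelihood test, with a median log2 fold change of 0.37, against 0.16 over all rows. The most abundant in the controls were Rnf2, a Polycomb ubiquitin ligase, Yy1, a DNA-binding factor, and Sfmbt2. Rnf2 had 88.9, 49.3 and 16.6 CPM in the dTAG libraries, against 84.0, 69.9 and 80.3 CPM in the controls. Yy1 had 67.9, 94.3 and 141 CPM in the dTAG libraries, against 73.6, 64.6 and 59.0 CPM in the controls. The paralogue Sfmbt1 had 11.7, 24.9 and 98.8 CPM in the dTAG libraries, against 14.3, 12.8 and 14.1 CPM in the controls. Between dTAG replicates 1 and 3, Sfmbt2 thus differed by less in CPM than these 3 genes, each of which had its value in dTAG replicate 2 between the other dTAG libraries. This was not particular to Sfmbt2. L3mbtl2, of the same list, differed by less than Sfmbt2, with 55.1, 43.2 and 45.8 CPM in the dTAG libraries, against 42.6, 63.1 and 55.2 CPM in the controls.

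Markers of the tissues in which Sfmbt2 is best known, and of cells that can accompany stem cells, were read beside it. Among trophoblast markers, Tpbpa had 0, 0.469 and 3.86 CPM in dTAG replicates 1, 2 and 3, against no count in the 3 controls. Esrrb, the most abundant, had 205, 173 and 109 CPM in the dTAG libraries, against 216, 211 and 219 CPM in the controls. Tfap2c had 83.4, 84.0 and 68.4 CPM in the dTAG libraries, against 102, 74.2 and 96.8 CPM in the controls. Krt18, a keratin gene, had 66.8, 63.8 and 76.1 CPM in the dTAG libraries, against 74.2, 47.3 and 63.1 CPM in the controls. The list thus had members that were higher and members that were lower in dTAG replicate 3 than in every control. Of the 16 tested, 8 had a log2 fold change below 0 and 8 above 0. Elf5, a trophoblast stem cell factor, had 0.155, 2.81 and 23.7 CPM in dTAG replicates 1, 2 and 3, against 0.140 to 0.767 CPM in the controls. The 18 trophoblast markers in the table summed to 512, 578 and 776 CPM in the dTAG libraries, against 482 to 564 CPM in the controls. In the controls and dTAG replicate 1 most of this came from Esrrb and Tfap2c, which naive stem cells also express. The 13 primitive endoderm markers summed to 179, 378 and 945 CPM in the dTAG libraries, against 160.04 to 189 CPM in the controls. The 13 feeder fibroblast markers summed to 51.6, 196 and 612 CPM in the dTAG libraries, against 36.8 to 52.9 CPM in the controls. None of these lists had a member past an adjusted p of 0.05 in edgeR's quasi-likelihood test, and the part of these markers in the level of Sfmbt2 was not tested.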

How the data were processed

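RNA-seq counts of 6 libraries (3 dTAG, 3 Control) were analysed. The authors deposited a table of raw counts, as whole numbers without normalization. Per the labels' protocols, RNA was column-purified, and libraries described as stranded and ribo-depleted, though made with an mRNA kit, were sequenced as paired ends. The submitters' processing notes name build mm10 and, among tools, featureCounts, limma, edgeR and STAR (2.7.2b), without their roles. The annotation and the handling of strand and of reads with several matches are not stated in the sources used here. Groups follow the sample titles.

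Rows without a symbol (903 of 27179, 2.20% to 14.6% of a library's counts) were left out. CPM are per 1e+06 counts in named rows. Positions and sequences come from RefSeq tables of GRCm38.p6, matched by symbol. edgeR 4.0.16 in R 4.3.3 was run on all rows (TMM, filterByExpr with minimum count 10 and minimum total 15, glmQLFit and glmQLFTest, two-sided, Benjamini-Hochberg). The code was first tried on simulated counts with far less spread between libraries (dispersion) than the common value of 0.42 fitted here. That trial does not show how well the fit finds changes in these libraries. Standard errors were derived from the F statistics. DESeq2 1.42.0 and limma 3.58.1 were alternatives. Intervals are Wilson 95% intervals.

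The members and lists were chosen with earlier results of these data known. Named were Sfmbt2, the 12 hairpin rows with most counts, the 3 nearest protein-coding genes on each side and, per list, members past the threshold or else the 3 most abundant. For the primitive endoderm, feeder fibroblast and receptor lists no member was named. Only their sums or shares are given, which do not show how single members went. Mir669j, Mir669a-2, Mir669a-5, Mir669a-8, Mir669a-9, other rows outside the 12, Drosha, Dgcr8, Dicer1, Sfmbt1, Tpbpa and Elf5 were named for other reasons, after their values were seen, as were the 30 to 300 count window and the trio of Mir467a copies. The same holds for L3mbtl2, Mir17hg, Mir124a-1hg, Ago1, Ago2, Ago3 and Ago4.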

Additional observations from a re-analysis of the deposited data

How the results depend on the processing

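Of all tested rows, edgeR called 0 with RLE scaling, with library totals and with library sizes over all rows, and limma-voom called 0. Without the filter on low counts edgeR called 1398 rows, DESeq2 called 5196, and dTAG replicate 1 alone against the controls gave 16. Leaving out each library in turn gave 0 to 13222 calls, the highest without dTAG replicate 1 and 0 without each of the others. Cluster rows called numbered 0 to 2 when a library was left out, with 2 only without dTAG replicate 1, and 0 under every other setting run. The log2 fold change of Sfmbt2 was below 0 under every setting, at -1.59 to -0.41 when a library was left out. It passed an adjusted p of 0.05 in edgeR only without dTAG replicate 1 (-1.59, adjusted p 0.0221), against adjusted p of 0.323 to 0.999 under the other settings.

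The replicate block gave 13 calls over all rows, 0 cluster rows and -0.94 (SE 0.63) for Sfmbt2. Deviations of same-numbered libraries from their group means correlated at 0.05, -0.02 and 0.03, and those of libraries with different numbers at -0.05 to 0.03. The dTAG libraries differ from each other in depth and content, which can hide a shared deviation. These values therefore cannot decide whether the replicate numbers pair the samples.

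The ratio of summed hairpin CPM, dTAG over control, moved by less than 0.575 under each setting, but its direction turned. That yardstick is the SD of the 3 dTAG libraries, each divided by the mean of the controls. It leaves out the spread of the controls and is wide, so staying within it says little. The ratio was 0.774 over all libraries and 0.598 with TMM scaling, 0.604 to 1.11 when a library was left out, 1.10 with dTAG replicate 1 alone and 1.22 between medians. The 16 hairpin counts of dTAG replicate 3 and the floors of 1.41 and 1.66 CPM in dTAG replicates 2 and 3 limit what single rows can show.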

Other observations

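The 609 other microRNA rows summed to 498, 606 and 1027 CPM in dTAG replicates 1, 2 and 3, against 498, 503 and 509 CPM in Control replicates 1, 2 and 3. In the controls this sum thus varied far less than the sum of the Sfmbt2 hairpins. Single rows of like total differed less, with a median coefficient of variation of 44.3%, against 64.1% for the cluster. In the controls and dTAG replicate 1 the rows Mir682, Mir1949 and Mir703 made up most of the sum over the 609 rows, which was not so in dTAG replicates 2 and 3. In dTAG replicate 3, 320 of the 609 rows had a count. Among the 609 are host-gene rows, such as Mir17hg and Mir124a-1hg. Mir17hg had 12.4, 25.3 and 40.3 CPM in the dTAG libraries, against 18.2, 10.2 and 19.1 CPM in the controls. Mir124a-1hg had 2.87, 25.8 and 48.0 CPM in the dTAG libraries, against 5.20, 8.18 and 3.26 CPM in the controls. Mir682 had 192, 127 and 10.5 CPM in the dTAG libraries, against 200.1, 206 and 204 CPM in the controls. Mir1949 had 61.0, 45.0 and 0.552 CPM in the dTAG libraries, against 67.0, 59.6 and 66.4 CPM in the controls. Mir703 had 58.3, 16.0 and 0 CPM in the dTAG libraries, against 57.5, 65.3 and 66.8 CPM in the controls. These 3 rows were lowest in dTAG replicate 3, as was the sum of the cluster's hairpin rows, though not each of those rows.

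Mir290a, a hairpin row of the cluster that marks pluripotent mouse cells, ran the other way. It had 22.9, 45.0 and 55.7 CPM in the dTAG libraries, above all controls at 13.6, 19.2 and 20.9 CPM. Of all 18116 tested rows, 23.9% had all dTAG libraries above all controls, so this separation is not read as a result about Mir290a. The other 6 rows of that cluster had no count in any library. Neither Mir290a nor any other microRNA row passed an adjusted p of 0.05 in edgeR's quasi-likelihood test, where 46 of the 609 were tested and 7 had an unadjusted p under 0.05.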
